A study of Mus musculus with 11 samples.

Results

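The comparison described here sets cardiac macrophages sorted 30 days after heart injury against those sorted 3 days after it, by their microRNAs (miRNAs). The day 30 cells were Ly6Clow/CX3CR1high and the day 3 cells Ly6Chigh/CX3CR1low, with 3 arrays in each group, 6 of the 11 arrays of the series. The labels give the group of each array. All mice were Cx3cr1GFP/+ animals of 2 to 3 months of age, in which a green fluorescent protein knock-in marks cells that use the Cx3cr1 promoter, and GFP+ cells were sorted from the heart. Injury was a cryoinjury, a freeze lesion used as a model of myocardial infarction. Uninjured hearts (day 0, 2 arrays) and day 7 (3 arrays), both Ly6Clow/CX3CR1high, were not part of the comparison. They entered the choice of miRNAs used for scaling, the floor, the estimate of spread and the account of stages at the end. Small RNA from 100 ng of total RNA was labelled with Cy3 and read on 1-colour Agilent arrays of 1247 mouse miRNAs. Day and sorted population changed together, so the time after injury and the Ly6C class cannot be told apart here. The sources used here do not say how many hearts went into each array.

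Ly6Chigh cells enter the injured heart from blood monocytes in the first days and clear dead tissue, whereas Ly6Clow macrophages prevail during scar formation and in the resting heart. A miRNA is cut from a hairpin precursor, which can yield a mature strand from its 5′ arm (5p) and one from its 3′ arm (3p). The mature strand guides a silencing complex to messenger RNAs that pair with its seed, bases 2 to 8 from the 5′ end, and miRNAs with a common seed share many targets. Several miRNAs are established regulators of macrophages: miR-155 favours inflammatory activation, miR-146a restrains Toll-like receptor signalling by targeting Irak1 and Traf6, and miR-223 and miR-142 mark the myeloid and blood lineages.

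The mature strands on which the results turn are shown 5′ to 3′ with the seed in capitals, from RefSeq (GRCm38.p6). RefSeq held a mature sequence under the array's name for 291 of the 364 miRNAs tested. The first set holds the miRNAs with the largest rises at day 30 and the miR-99/100 and miR-125 families, whose members share 1 seed each.
miR-146a-5p: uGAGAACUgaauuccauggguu
miR-511-3p: aAUGUGUAgcaaaagacaggau
miR-101a-3p: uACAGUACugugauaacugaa
miR-30a-5p: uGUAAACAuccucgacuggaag
miR-99a-5p: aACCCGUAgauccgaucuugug
miR-99b-5p: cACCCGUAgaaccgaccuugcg
miR-100-5p: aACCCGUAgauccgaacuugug
miR-125a-5p: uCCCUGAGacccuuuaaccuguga
miR-125b-5p: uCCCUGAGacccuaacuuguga

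The second set holds miRNAs that share a seed but were called in opposite directions: the let-7 seed (let-7e-5p higher, miR-98-5p lower), the miR-15/16 seed (miR-497a-5p higher, miR-15b-5p lower) and the seed of miR-148 and miR-152 (miR-152-3p higher, miR-148a-3p lower).
let-7e-5p: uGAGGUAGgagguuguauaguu
miR-98-5p: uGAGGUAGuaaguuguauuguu
miR-497a-5p: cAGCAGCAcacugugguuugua
miR-15b-5p: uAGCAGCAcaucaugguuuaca
miR-152-3p: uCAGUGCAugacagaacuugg
miR-148a-3p: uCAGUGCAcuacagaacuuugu

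The third set holds the strands of the miR-29 family, whose 3p strands share a seed, with the 5p strand of the miR-29b-1 hairpin, which moved the other way.
miR-29a-3p: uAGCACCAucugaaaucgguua
miR-29b-3p: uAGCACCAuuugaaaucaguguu
miR-29c-3p: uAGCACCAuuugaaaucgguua
miR-29b-1-5p: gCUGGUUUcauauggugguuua

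Levels are given as log2 of the array signal divided by the 75th percentile of the same array, taken over the 126 miRNAs that all 11 arrays detected, so a level of 0 is that percentile, with a floor at -8.53. Levels of different miRNAs are not compared, because probes differ in brightness. Before scaling, that percentile lay between 805 and 1610 signal units on the day 3 arrays and between 1450 and 2300 on the day 30 arrays, and 290 to 340 miRNAs were detected per array. Day 30 replicates 2 and 3 differed by a median of 0.06 log2, and their squared difference was 0.21 of what the scanner's own error allows, against 3.03 to 39 for the other 9 replicate pairs. They therefore differed by less than the measurement noise and were averaged and counted as 1 sample, which leaves 2 samples at day 30 and 3 at day 3. Both arrays are still printed below. The error of a change (±) is its standard error in a limma fit over all 4 stages, and a miRNA was called changed at a Benjamini-Hochberg adjusted p under 0.05. The labels describe the replicates as independent, and the small number of arrays limits the precision.

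Between day 3 and day 30, 116 of 364 tested miRNAs were called (31.9%), 37 higher (10.2%) and 79 lower (21.7%) at day 30, and 150 had an unadjusted p under 0.05. The arrays of the groups did not overlap for 265 miRNAs (72.8%), among them 114 of the 116 called. Among the 243 miRNAs detected on all 6 arrays, 23 were called higher and 56 lower, and 17 of the higher and 25 of the lower calls were at least 4-fold. The median change of these 243 was -0.61. The smallest called change was 1.10 in absolute size, so all 37 higher calls had to lie above this median and all 79 lower calls below it.

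This median depends on the scaling, from -0.61 to 0.31 over the scalings tried, and with it the split of the calls. Scaling to the percentile of all miRNAs gave 63 higher and 63 lower, quantile normalization gave 69 and 65, and the unscaled signal gave 76 and 55. Scaling to the array's labelling controls gave 100 and 53, and the authors' deposited table, which is quantile normalized, gave 62 and 69 of 317. The split of rises and falls thus differed between scalings, while no call of a named miRNA changed sign under any setting. With day 30 replicates 2 and 3 as separate arrays, 144 miRNAs were called, 46 higher and 98 lower. The number of calls also rests on single samples: it was 28 without day 30 replicate 1, 39 without day 30 replicates 2 and 3, 66 without day 3 replicate 1 and 58 without day 3 replicate 2. Both slides carried both groups, and all 116 called miRNAs had the same sign within each slide. For the 114 whose groups did not overlap this had to be so, and it is no separate check. With the slide as a block, 149 miRNAs were called, including all 116. With array brightness in the fit, 132 were called, of which 104 were among the 116.

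**Figure D1:**
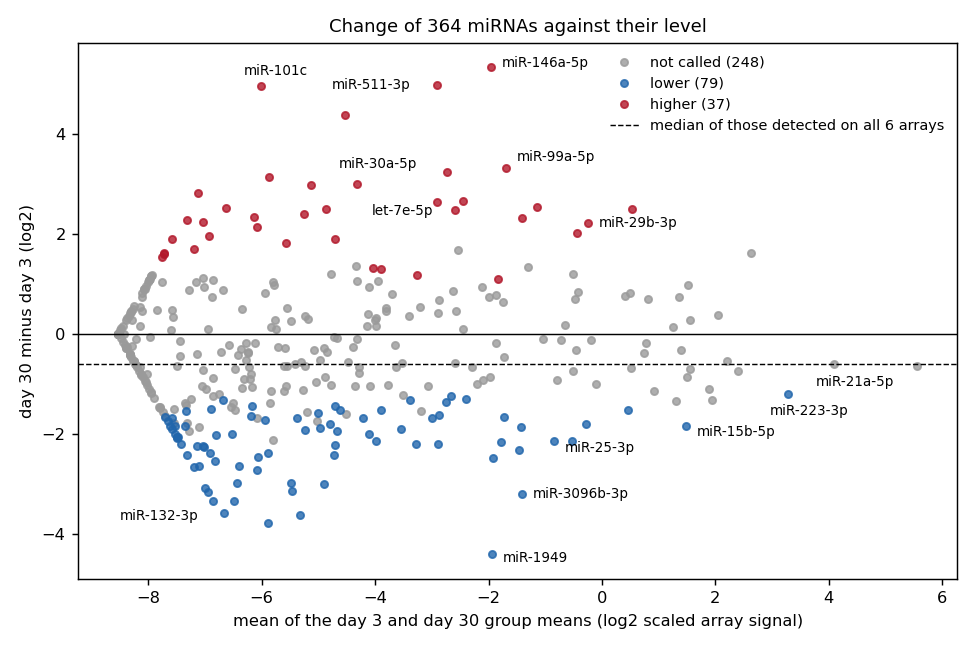
Change from day 3 to day 30 (log2, vertical axis) of the 364 tested miRNAs against the mean of their group means (log2 scaled array signal, horizontal axis). The 37 miRNAs called higher are red, the 79 called lower blue, and the dashed line is the median change of -0.61. The diagonal edges at the left are miRNAs at the floor of -8.53 in one group.

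miR-146a-5p rose most among the miRNAs detected on all 6 arrays. Its levels were -3.30, -5.80 and -4.76 in day 3 replicates 1 to 3, and 0.92, 0.49 and 0.53 in day 30 replicates 1 to 3. All day 30 arrays lay far above the day 3 arrays, which themselves spread over more than 2 log2 units. The change was 5.33 ± 0.66, or 40.3-fold (limma adjusted p = 0.00017), and it was 4.95 within slide 1 and 6.31 within slide 2. Its close relative miR-146b-5p, which has the same seed and differs from it by 2 bases, had a change of 0.94 ± 0.57 (adjusted p = 0.213). Dividing an array by 1 factor cannot alter the log2 difference of 2 miRNAs above the floor on that array. For miR-146a-5p over miR-146b-5p, this difference lay between -0.69 and 0.92 at day 3 and between 4.31 and 4.40 at day 30.

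miR-511-3p had the next largest rise. RefSeq places its hairpin within the span of Mrc1, the gene of the mannose receptor CD206, a marker of alternatively activated macrophages. Its levels were -4.85, -5.73 and -5.62 at day 3 and -0.51, -0.35 and -0.34 at day 30, with no overlap and little spread at day 30. The rise was 4.97 ± 0.58, or 31.4-fold (adjusted p = 0.000155), with 4.73 and 5.38 within the slides. The 5p strand of the same hairpin was not detected at day 3 and was detected on all day 30 arrays, at levels from -7.46 to -7.43 (adjusted p = 0.106).

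Alternative activation of macrophages was followed with a list of 11 miRNAs, of which 10 were tested. Of these, 5 rose and 1 fell, against 10.2% and 21.7% of all miRNAs tested. The median change was 1.56, against -0.43 over all miRNAs tested. The rises were those of miR-146a-5p, miR-511-3p, miR-99b-5p, miR-125a-5p and miR-34a-5p. The fall was that of miR-223-3p. The pair miR-378a-3p and miR-378a-5p had changes of -0.27 and 0.88 and did not pass.

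**Figure D2:**
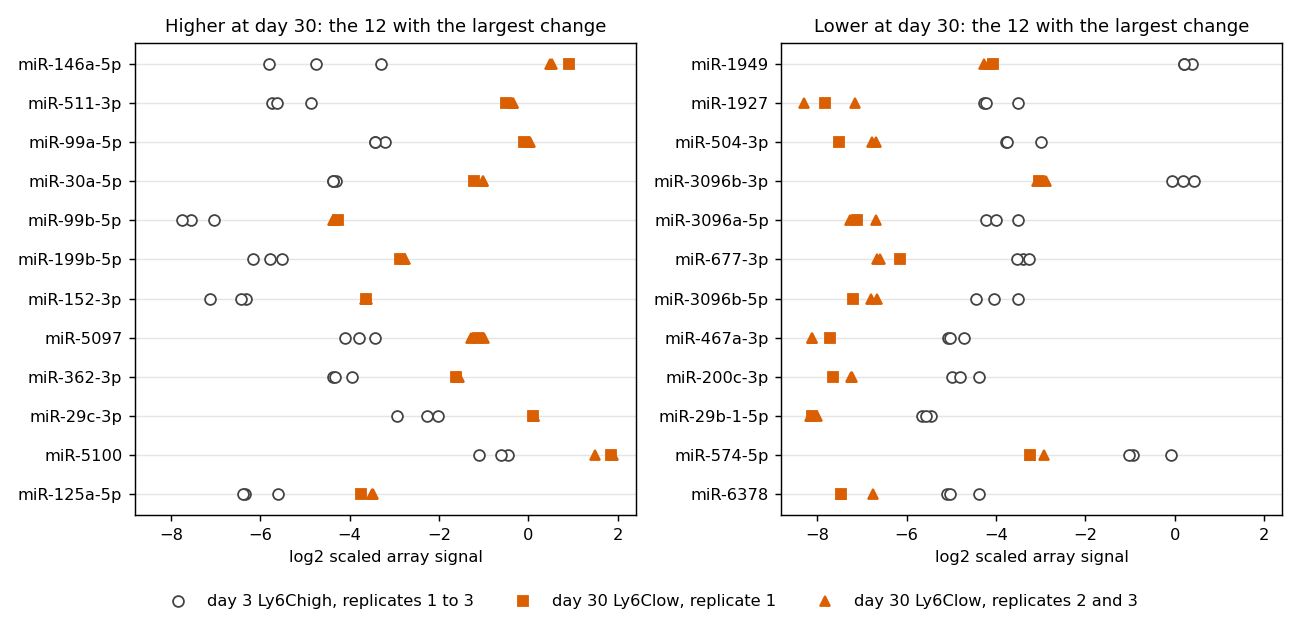
Level on each of the 6 arrays (log2 scaled array signal, horizontal axis) of the 12 miRNAs with the largest rise (left) and the 12 with the largest fall (right) among those detected on all 6 arrays. Open circles are day 3 arrays, squares day 30 replicate 1 and triangles day 30 replicates 2 and 3. The groups do not overlap in any of the 24 rows, which were picked for large called changes. They also do not overlap for 265 of the 364 miRNAs tested (72.8%).

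The miR-99/100, let-7 and miR-125 miRNAs lie together in clusters copied several times in the mammalian genome, and are known as regulators of growth signalling and of haematopoiesis. In this list, 6 of the 8 tested members rose (against 10.2% of all miRNAs tested) and none fell, with a median change of 2.44. miR-99a-5p, a repressor of the growth kinase mTOR, had levels of -3.43, -3.21 and -3.43 at day 3 and -0.11, 0.02 and 0.02 at day 30. Its replicates were nearly equal in each group, and the rise of 3.31 ± 0.40 (9.93-fold, adjusted p = 0.000158) was many times their spread. miR-99b-5p rose by 3.14 ± 0.43, from -7.04, -7.54 and -7.75 at day 3 to -4.25, -4.34 and -4.38 at day 30 (adjusted p = 0.000314), a call lost with the highest floor.

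miR-125a-5p rose from -5.61, -6.34 and -6.38 at day 3 to -3.74, -3.48 and -3.51 at day 30, a change of 2.49 ± 0.47 (adjusted p = 0.00236). let-7e-5p rose from -3.62, -3.72 and -4.16 to -1.46, -1.19 and -1.27, by 2.49 ± 0.42 (adjusted p = 0.00137). RefSeq places miR-99b, let-7e and miR-125a within the span of Spaca6 on chromosome 17, so the 3 strands that rose share a locus. The 3p strand of miR-125a, from the same locus, had a change of -1.46 ± 0.57 (adjusted p = 0.0678). miR-125b-5p, whose seed is that of miR-125a-5p, had levels of -2.10, -3.03 and -2.58 at day 3 and -0.08, -0.45 and -0.40 at day 30, a rise of 2.32 ± 0.43 (adjusted p = 0.00216).

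miR-100-5p rose by 2.39 ± 0.49 (adjusted p = 0.00375), but it differs from miR-99a-5p by a single base, and the array's probes may not separate them. let-7c-5p comes from 2 loci, beside miR-99a on chromosome 16 and beside let-7b on chromosome 15, which its signal does not separate. It had a change of 0.15 ± 0.42 (adjusted p = 0.818), with levels between 0.91 and 1.44 on all 6 arrays.

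In the miR-30 family, known for restraining connective tissue growth factor in the heart, 2 of the 7 tested members rose and none fell. Over all miRNAs tested, 10.2% rose and 21.7% fell. Both of the risen members were strands of the miR-30a hairpin. miR-30a-5p had levels of -4.31, -4.38 and -4.37 at day 3 and -1.21, -1.03 and -1.02 at day 30, and rose by 3.24 ± 0.44 (adjusted p = 0.000308). miR-30a-3p was undetected on all day 3 arrays and lay between -5.74 and -5.66 at day 30, at least 7.07-fold higher than the floor (adjusted p = 0.00244, a call lost with the highest floor). The other 4 members of the 5p arm had changes from 0.45 to 0.93 and did not pass. miR-30e-5p differs from miR-30a-5p by a single base outside the seed. The difference of miR-30a-5p over miR-30e-5p within each array lay between -1.64 and -1.08 at day 3 and between 0.88 and 1.30 at day 30.

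The miR-29 family represses collagens and other matrix genes in the injured heart. Of its 5 tested strands, 3 rose and 1 fell, against 10.2% and 21.7% of all miRNAs tested. The rises numbered 1 without day 3 replicate 2, without day 30 replicate 1, without day 30 replicates 2 and 3, or with the highest floor. miR-29c-3p rose from -2.03, -2.95 and -2.27 at day 3 to 0.10, 0.12 and 0.13 at day 30, by 2.53 ± 0.49 (adjusted p = 0.00256). miR-29b-3p rose from -1.34, -1.95 and -0.74 to 1.09, 0.61 and 0.66, by 2.21 ± 0.59 (adjusted p = 0.0145). In miR-29a-3p, 1 base away from miR-29c-3p, the 6 arrays lay between 1.78 and 2.26 and the change was 0.37 ± 0.41 (adjusted p = 0.514).

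The fall in this family was that of miR-29b-1-5p, the opposite strand of 1 of the 2 hairpins that give miR-29b-3p. Its levels were -5.46, -5.65 and -5.57 at day 3 and -8.11, -8.17 and -8.00 at day 30, a change of -2.54 ± 0.48 (adjusted p = 0.00244). Of the 45 hairpins with both strands tested, this was the only one whose strands were called in opposite directions. With the highest floor, the change of miR-29b-1-5p was 0 and its call was lost. In 2 hairpins, miR-29c and miR-30a, both strands rose, and in 20 only 1 strand was called.

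The miR-101 family, whose best known target is the histone methyltransferase Ezh2, was close to the detection limit at day 3. miR-101a-3p was at -6.04, at the floor and at -5.59 in day 3 replicates 1 to 3, and at -2.15, -2.61 and -2.49 at day 30. It rose by 4.37 ± 0.79 (adjusted p = 0.00197), and the rise was 3.67 within slide 1 and 5.98 within slide 2. miR-101b-3p rose by 2.35 ± 0.70 (adjusted p = 0.0245), a call lost without day 3 replicate 1 or 2 or either day 30 sample (adjusted p up to 0.18). The signal named miR-101c rose by 4.96 ± 0.55 (adjusted p = 0.000155) and was detected on 1 of the 3 day 3 arrays. Its sequence is that of miR-101a-3p without a base at each end, so these signals are not independent.

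**Figure D3:**
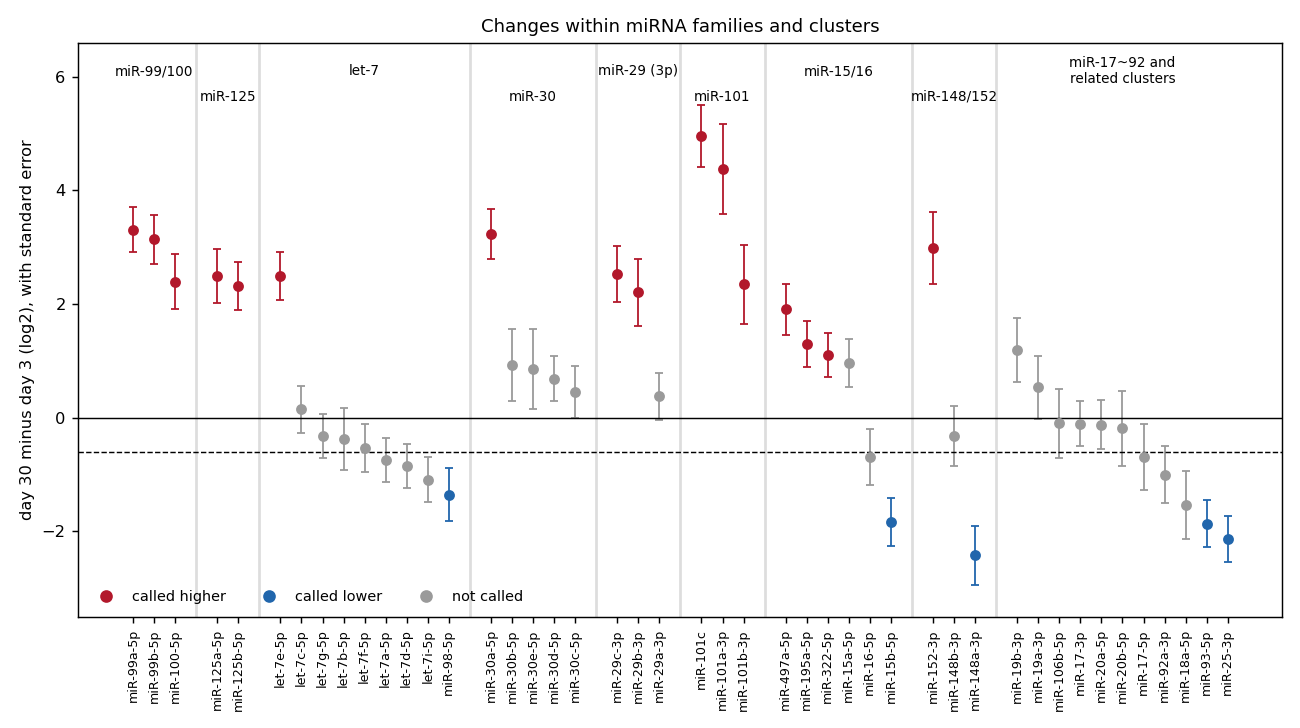
Change from day 3 to day 30 (log2, vertical axis, bars are standard errors of the limma fit) of the tested members of 9 miRNA families or clusters. Red points were called higher, blue lower and grey not called, and the dashed line is the median change of -0.61. The let-7, miR-15/16 and miR-148 families hold calls in both directions.

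Among the 30 seeds shared by 2 or more tested miRNAs (84 miRNAs in all), 3 held calls in both directions. In the let-7 family, 1 of the 9 tested members rose (let-7e-5p) and 1 fell, against 10.2% and 21.7% of all miRNAs tested. The fall was that of miR-98-5p, from -2.10, -2.18 and -1.95 at day 3 to -3.32, -3.54 and -3.53 at day 30, a change of -1.35 ± 0.47 (adjusted p = 0.0458) that did not pass under 15 of the 27 alternatives, among them 6 other scalings and each fit that left out a sample of either group (adjusted p up to 0.23). The other 7 members had changes from -1.09 to 0.15 and did not pass. let-7a-5p differs from let-7e-5p by a single base and had a change of -0.74 ± 0.39. Within each array, the difference of let-7e-5p over let-7a-5p lay between -6.71 and -6.53 at day 3 and between -3.54 and -3.20 at day 30.

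The miR-15/16 family slows the cell cycle by repressing cyclins and Bcl2. Of its 6 tested members, 3 rose and 1 fell (against 10.2% and 21.7% of all miRNAs tested), with a median change of 1.04. miR-497a-5p rose by 1.91 ± 0.44 (adjusted p = 0.00802) and miR-195a-5p, from the same cluster on chromosome 11, by 1.29 ± 0.40 (adjusted p = 0.0306). miR-322-5p rose by 1.10 ± 0.39 (adjusted p = 0.0485), the smallest change called. miR-15b-5p fell from 2.18, 2.78 and 2.23 at day 3 to 0.49, 0.66 and 0.62 at day 30, a change of -1.83 ± 0.42 (adjusted p = 0.00762). The fall did not pass on the unscaled signal, with control scaling or with the percentile of all miRNAs. The difference of miR-497a-5p over miR-15b-5p lay between -8.55 and -7.70 at day 3 and between -4.37 and -4.25 at day 30. Dividing an array by 1 factor cannot alter this difference. miR-16-5p comes from 2 loci, beside miR-15b within the span of Smc4 and within the span of Dleu2. It had a change of -0.70 ± 0.49 (adjusted p = 0.287). Without day 30 replicate 1, adjusted p was 0.103 for miR-15b-5p and 0.0695 for miR-497a-5p, and without day 30 replicates 2 and 3 it was 0.0672 and 0.0866. The calls of miR-195a-5p and miR-322-5p were lost in 6 and 7 of the 10 fits that left out 1 sample, among them those without each sample of either group (adjusted p up to 0.189 and 0.285).

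In the family of miR-148 and miR-152, which targets the DNA methyltransferase Dnmt1, miR-152-3p rose and miR-148a-3p fell. miR-152-3p, from a hairpin within the span of Copz2, went from -6.31, -7.12 and -6.43 at day 3 to -3.63, -3.67 and -3.62 at day 30, by 2.98 ± 0.63 (adjusted p = 0.00462). miR-148a-3p went from -3.59, -3.75 and -3.21 to -5.72, -6.14 and -6.18, a change of -2.42 ± 0.52 (adjusted p = 0.00476). The difference of miR-152-3p over miR-148a-3p within an array was between -3.37 and -2.72 at day 3 and between 2.08 and 2.55 at day 30. Because probes differ in brightness, only the shift of this difference can be read, and not which miRNA was more abundant. miR-148b-3p had a change of -0.32 ± 0.53 (adjusted p = 0.663). Leaving out day 30 replicate 1 raised the adjusted p of miR-152-3p to 0.0502, and leaving out day 30 replicates 2 and 3 raised that of miR-148a-3p to 0.0672.

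The Toll-like receptor and NF-kappaB list had 10 miRNAs, of which 6 were tested. Of these, 1 rose (miR-146a-5p) and 1 fell (miR-132-3p), against 10.2% and 21.7% of all miRNAs tested. The median change was 0.16, or -0.18 with brightness in the fit. With the percentile of the miRNAs detected on the 6 arrays it was 0.161. The remaining scalings gave medians from 0.445 (median scaling) to 1.105 (labelling controls). miR-132-3p, which CREB and inflammatory stimuli induce, had levels of -4.91, -4.59 and -5.11 at day 3. At day 30 it was detected on 2 of 3 arrays, at levels from -8.53 to -8.28, and the change was -3.57 ± 0.49 (adjusted p = 0.000308), a call lost with the highest floor. miR-212-3p comes from the same cluster and has the same seed, and had a change of 1.20 ± 0.54 (adjusted p = 0.114). The difference of miR-132-3p over miR-212-3p was between 0.23 and 0.82 at day 3 and between -4.70 and -4.09 at day 30.

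The inflammatory miR-155-5p was at -3.89, -4.98 and -4.48 at day 3 and at -5.27, -5.30 and -5.41 at day 30. The day 3 arrays lay above the day 30 arrays, but the change of -0.86 ± 0.51 did not pass (adjusted p = 0.202). miR-21a-5p, abundant in activated macrophages, was between 4.33 and 4.51 at day 3 and between 3.77 and 3.80 at day 30, a change of -0.61 ± 0.40 (adjusted p = 0.26).

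miR-1949 had the largest fall. Its levels were 0.21, 0.38 and 0.21 at day 3 and -4.06, -4.16 and -4.28 at day 30, a change of -4.41 ± 0.51 (21.2-fold, adjusted p = 0.000155). miR-1927 went from -4.26, -3.51 and -4.23 to -7.84, -8.29 and -7.16, a change of -3.78 ± 0.56 (adjusted p = 0.000443). miR-504-3p fell by 3.63 on the log2 scale and miR-677-3p by 2.99. The related signals miR-3096b-3p, miR-3096a-5p and miR-3096b-5p fell by 3.20, 3.13 and 2.97. None of these miRNAs has a well established function in macrophages.

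The miR-297, miR-466, miR-467 and miR-669 families are rodent miRNAs, many of them from a repeated block of hairpins in an intron of Sfmbt2. Of 17 tested members, 6 fell (against 21.7% of all miRNAs tested) and none rose, with a median change of -1.45. RefSeq matched 4 of the 17, none of them called, and placed these in other genes. The falls numbered 2 without day 30 replicate 1, 3 without day 30 replicates 2 and 3, 4 without day 3 replicate 1 or 2 or day 7 replicate 3, and 0 with the highest floor. Cyclic loess and the labelling controls each gave 2 rises beside 9 and 8 falls. On the authors' deposited table the median was 0.56, with 4 falls. miR-467a-3p went from -5.08, -4.71 and -5.04 at day 3 to -7.72, -8.13 and -8.11 at day 30, a change of -2.97 ± 0.55 (adjusted p = 0.00216). miR-466b-3p was not detected at day 30 and was at least 8.95-fold lower there (adjusted p = 0.00142). These hairpins resemble each other closely, so their signals may share RNA. Of 19 listed miRNAs of the imprinted Dlk1-Dio3 locus, 2 were tested and miR-370-3p fell, by 2.27. RefSeq places further tested miRNAs in this stretch of chromosome 12, which were named after their values were seen. Of these, miR-494-3p, miR-3070-2-3p and miR-1906 fell by 2.32, 2.39 and 1.45, and miR-1906 has 2 loci. There, miR-3070-3p, miR-1188-3p, miR-3072-5p and miR-3544-3p had changes of 1.08, 0.0, -0.65 and -2.06 and were not called. Of 12 tested miRNAs of poor conservation, some reported to be fragments of longer RNAs, 2 rose and 4 fell. Over all miRNAs tested, these shares were 10.2% and 21.7%. The rises were those of miR-5097 (2.65 ± 0.68) and miR-5100 (2.49 ± 0.60), both lost without either day 30 sample, and the fall of miR-370-3p was lost without day 30 replicate 1. None of the 4 falls among the poorly conserved miRNAs passed without day 3 replicate 1 or 2 or either day 30 sample, with the highest floor or with the labelling controls, and 1 passed without day 7 replicate 3.

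Clusters that promote the cell cycle were followed with a list of the miR-17 cluster and its relatives, the miR-106a and miR-106b clusters, in which 2 of 11 tested members fell, a share near the 21.7% of all miRNAs, and none rose. The median change was -0.18, against -0.43 over all miRNAs tested, and was above 0 with 4 of the other scalings (0.10 to 0.76). Both of these falls came from the cluster in an intron of Mcm7, a gene of the DNA replication licensing complex. miR-25-3p went from 0.05, 0.59 and 0.05 at day 3 to -2.04, -1.77 and -1.78 at day 30, a change of -2.14 ± 0.41 (adjusted p = 0.00244). miR-93-5p went from -0.65, -0.41 and -0.45 to -2.29, -2.43 and -2.44, a change of -1.86 ± 0.41 (adjusted p = 0.00553). miR-106b-5p, from the same intron, was at -1.37, -0.84 and -0.79 at day 3 and at -1.15, -1.05 and -1.03 at day 30. Its groups overlapped (adjusted p = 0.92). Without day 30 replicate 1, adjusted p was 0.0604 for miR-25-3p and 0.0678 for miR-93-5p, and without day 30 replicates 2 and 3 it was 0.074 for miR-93-5p. On the unscaled signal neither fall passed, and that of miR-93-5p also did not pass with the percentile of all miRNAs or with labelling controls. Outside the list, miR-18a-3p of the miR-17 cluster also fell, by 1.74 (adjusted p = 0.0184).

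miR-222-3p, a repressor of the cell cycle inhibitor Cdkn1b, fell from -2.42, -3.60 and -3.31 to -4.93, -5.22 and -5.33, by 1.99 on the log2 scale (adjusted p = 0.0136). miR-221-3p, its cluster partner, had a change of -1.04 ± 0.48 (adjusted p = 0.118). In the p53 and hypoxia list, miR-34a-5p, a p53 target, rose by 2.02 ± 0.55 (adjusted p = 0.0163). miR-210-3p, which hypoxia induces, fell from between -3.02 and -2.56 to between -4.21 and -3.87, by 1.32 on the log2 scale (adjusted p = 0.0339). The miR-210-3p fall did not pass under 13 of the 27 alternative settings. In the miR-181 family, 1 of 5 tested members fell, a share near the 21.7% of all miRNAs. It was miR-181d-5p, at the floor on all day 30 arrays and between -5.53 and -5.32 at day 3 (adjusted p = 0.00168). miR-7a-5p and miR-130b-3p fell by 2.14 and 1.90. The miR-222-3p fall was lost without day 3 replicate 1 or either day 30 sample. It also did not pass with the percentile of all miRNAs, quantile normalization, labelling controls or the unscaled signal. The miR-34a-5p rise was lost without day 3 replicate 2 or 3 or either day 30 sample. This rise also did not pass with the percentile of all miRNAs or the highest floor.

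Some miRNAs were seen in 1 group only. Of 24 detected on all day 30 arrays and on no day 3 array, 5 were called higher. They were miR-30a-3p, miR-5110 (at least 3.72-fold), miR-33-5p (at least 3.05-fold), miR-3106-5p (at least 3.04-fold) and miR-1941-5p (at least 2.91-fold). miR-33 lies in the Srebf2 gene and represses the cholesterol exporter Abca1. Of 17 detected on all day 3 arrays and on no day 30 array, 5 were called lower: miR-466b-3p, miR-5099 (at least 5.32-fold), miR-467c-5p (at least 4.60-fold), miR-5116 (at least 4.21-fold) and miR-467a-5p (at least 3.14-fold). All of these calls but those of miR-30a-3p, miR-466b-3p and miR-5099 were lost without either day 30 sample, and that of miR-5099 without day 30 replicate 1. A bound sets the mean of the group with signal against the floor of -8.53. With the highest floor, all of these calls were lost. Not tested were 883 miRNAs, of which 856 were undetected on all 6 arrays and 27 were detected on 1.

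Markers of blood cells were present throughout. miR-223-3p, the myeloid marker, was at 3.71, 4.09 and 3.82 at day 3 and at 2.73, 2.63 and 2.62 at day 30, a change of -1.19 ± 0.43 (adjusted p = 0.0494) that did not pass under 15 of the 27 alternatives. miR-142a-3p had a change of 0.81 ± 0.55 (adjusted p = 0.27), and miR-142a-5p of 1.68 ± 0.70 (adjusted p = 0.0861).

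Markers of other heart cells moved in part with the comparison. Of 7 fibroblast and smooth muscle miRNAs on the array, 5 were tested and 2 rose, against 10.2% of all miRNAs tested. They were miR-199b-5p, by 2.99 ± 0.51 (adjusted p = 0.00139), and miR-199a-3p, by 1.18 ± 0.41 (adjusted p = 0.0446). The summed scaled signal of this list was between 0.104 and 0.139 at day 3 and between 0.345 and 0.354 at day 30, and the smooth muscle marker miR-145a-5p was undetected on all 6 arrays. Of 7 cardiomyocyte miRNAs, 3 were tested and 1 rose, against 10.2% of all miRNAs tested. It was miR-1a-3p, by 2.14 ± 0.69 (adjusted p = 0.0345). The summed signal of the cardiomyocyte list was between 0.0294 and 0.0489 at day 3 and between 0.0634 and 0.0882 at day 30. From this list, miR-208a-3p, miR-208b-3p and miR-499-5p were undetected on all 6 arrays.

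Neither of the 2 endothelial miRNAs, miR-126a-3p and miR-126a-5p, passed the test, and their summed signal was between 0.309 and 0.402 at day 3 and between 0.251 and 0.266 at day 30. Of 2 tested lymphocyte miRNAs, 1 fell, against 21.7% of all miRNAs tested. It was miR-150-5p, by 1.99 on the log2 scale (adjusted p = 0.029). This call was lost under 11 of the 27 alternatives, among them quantile normalization, the unscaled signal, labelling controls and the authors' deposited table. The other strand, miR-150-3p, was undetected at day 3 and had a change of 0.82 (adjusted p = 0.273). The summed signal of the list was between 0.0172 and 0.0411 at day 3 and between 0.00734 and 0.0129 at day 30. Of 2 tested erythroid miRNAs, none passed in the main fit. One of them, miR-451a, had a change of 1.06 (adjusted p = 0.157). It passed as a rise under 8 of the 27 alternatives, among them median scaling, quantile normalization, the unscaled signal, labelling controls and the authors' deposited table. The summed signal of the erythroid list lay between 0.0369 and 0.0651 at day 3 and between 0.0896 and 0.114 at day 30, and miR-144-3p was undetected. In the epithelial, liver and neuron list, 5 miRNAs were tested, of which 1 rose and 1 fell. Over all miRNAs tested, 10.2% rose and 21.7% fell. The liver miRNA miR-122-5p rose by 1.71 and the epithelial miR-200c-3p fell by 2.72. The epithelial miR-200a-3p, miR-141-3p and miR-200b-3p had changes of 0.45, 0.34 and -1.05 and did not pass. The summed signal of this list lay between 0.0638 and 0.0817 at day 3 and between 0.0419 and 0.0454 at day 30. The calls of miR-199a-3p, miR-1a-3p, miR-150-5p and miR-122-5p were each lost without either day 30 sample, among other settings, and that of miR-200c-3p without day 30 replicate 1 or with the highest floor. The part of other cells in the results was not tested. In sorted bulk RNA, fewer cells of a type and less of a miRNA per cell cannot be told apart.

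The changes moved with base composition. The median change was 0.29 for the 38 miRNAs with under 40% G and C bases, -0.16 for the 88 from 40% to under 50%, -0.40 for the 86 from 50% to under 60% and -0.89 for the 79 with 60% or more. From the lowest range to the highest, 15.8%, 11.4%, 12.8% and 3.8% were called higher. The shares called lower were 10.5%, 18.2%, 24.4% and 21.5%. Over all miRNAs tested, 10.2% were called higher and 21.7% lower. The miRNAs called higher had a median of 47.7% G and C, those called lower 53.4% and those not called 52.2%. The part of base composition in the results was not tested.

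**Figure D4:**
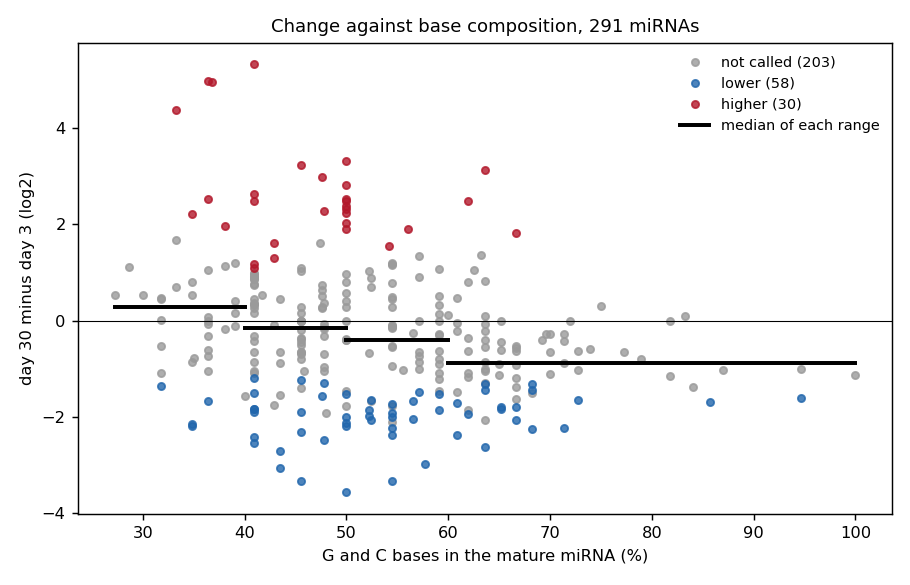
Change from day 3 to day 30 (log2, vertical axis) of the 291 miRNAs with a RefSeq sequence, against the percentage of G and C bases in the mature strand. Red points were called higher, blue lower and grey not called, and black bars are the median changes of 0.29, -0.16, -0.40 and -0.89 in 4 ranges of G and C content.

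The arrays of uninjured hearts and of day 7, which were dimmer (percentile between 55.7 and 323 signal units), give levels of the same miRNAs at the other stages. Among miRNAs detected on all 11 arrays, the day 0 mean was nearer to day 30 than to day 3 for 11 of 15 higher calls but for 6 of 30 lower calls. At day 7 these counts were 10 of 15 and 6 of 30. The share over all 126 miRNAs detected on all 11 arrays was not taken, so these counts have no baseline. The part of array brightness in them was not tested. miR-99a-5p was at 0.01 and -0.54 in uninjured hearts and between -1.49 and -1.17 at day 7, so its day 3 arrays were the lowest of the series and its day 30 arrays lay near the uninjured ones. miR-146a-5p was at 0.31 and -0.38 at day 0 and between -1.77 and -0.51 at day 7, and miR-30a-5p was at -1.09 and -1.97 at day 0. miR-511-3p, at -1.73 and -2.23 at day 0, had its highest levels of the series at day 30.

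Other miRNAs did not follow this order. miR-29b-3p was at -2.12 and -3.30 at day 0 and between -3.95 and -2.20 at day 7, below both groups compared. miR-1949 was at -2.52 and -0.92 at day 0 and between -0.57 and 0.41 at day 7, so its day 30 arrays were the lowest of the series. miR-93-5p and miR-15b-5p were highest at day 3, and at day 0 they were at -2.84 and -3.14, and at 0.43 and 0.12. These stages are given as levels, without a test.

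**Figure D5:**
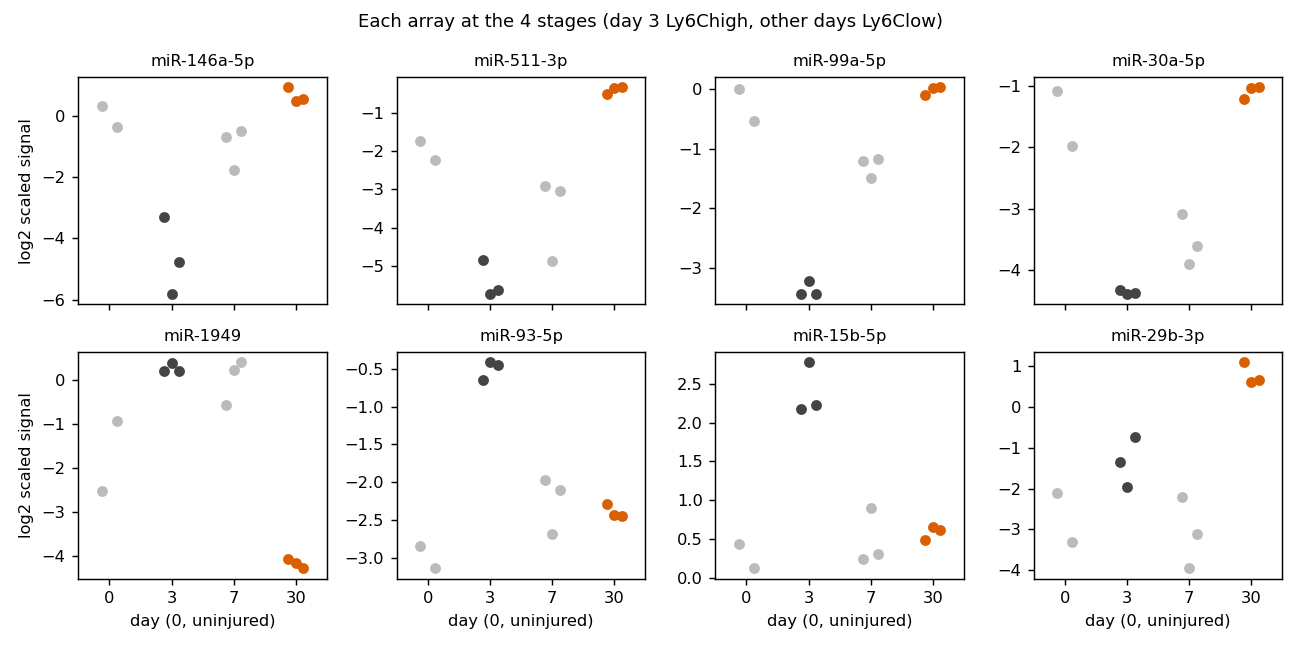
Level (log2 scaled array signal, vertical axes, each with its own range) of 8 miRNAs on each of the 11 arrays at day 0 (uninjured), 3, 7 and 30. Dark points are the day 3 Ly6Chigh arrays, orange the day 30 Ly6Clow arrays and light grey the other Ly6Clow arrays, and miR-99a-5p dips at day 3 while miR-93-5p and miR-15b-5p peak there.

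The calls that held under every alternative in which the miRNA was tested numbered 16 of the 61 calls named by the rule given under the processing. They were the rises of miR-146a-5p, miR-511-3p, miR-101a-3p, miR-101c, miR-99a-5p, miR-30a-5p, miR-199b-5p, miR-29c-3p, let-7e-5p and miR-125a-5p, and the falls of miR-1949, miR-1927, miR-504-3p, miR-3096a-5p, miR-3096b-3p and miR-677-3p.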

How the data were processed

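Per the labels, signals are the scanner output of Agilent Feature Extraction (version not given in the sources used here), deposited by the authors as gene-level intensity per array with a detection flag. The authors' deposited table holds log2 values, which were used as an alternative. Control features (21 per array) were left out. Each array was divided by its 75th percentile over 126 miRNAs, floored at 0.00271 and logged. miRNAs detected on at least 2 of the 6 arrays were tested with limma 3.58.1 (R 4.3.3; lmFit, eBayes; labels read with jsonlite 2.0.0) in 1 model of 4 groups and 10 samples, adjusted over 364 miRNAs by Benjamini-Hochberg. The script was tested on simulated data. Sequences came from RefSeq tables, matched by name, with Python 3.11.15 and pandas 2.3.3, and figures were drawn with matplotlib 3.10.9.

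Named miRNAs are the 12 largest changes each way among called miRNAs detected on all 6 arrays, the largest bounds, up to 3 called members of each of 26 lists, and, always, miR-142a-3p, miR-223-3p, miR-155-5p, miR-21a-5p and miR-146a-5p. Bounds are printed against the common floor, since the lower detection limit of single arrays would give larger folds. Further family members and stage levels were named after their values were seen. The comparison and the lists were chosen with earlier results of these data known. Alternatives covered scaling, floor, filter, slide, brightness, weights and leaving out samples.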

Additional observations from a re-analysis of the deposited data

How the results depend on the processing

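Counts are given as all calls, higher and lower, against 116, 37 and 79. Fitting only the groups compared gave 223, 78 and 145, array quality weights (whose estimation did not converge) 243, 84 and 159, and the highest floor 53, 23 and 30. Calls higher were 63 with the percentile of all miRNAs, 69 with quantile normalization, 84 with cyclic loess, 76 unscaled, 100 with labelling controls, 62 of 317 in the authors' deposited table, 58 with brightness as a covariate and 23 when detection on all 6 arrays was required. Leaving out 1 sample gave 28 to 160 calls, 12 to 44 higher and 16 to 116 lower. Without a day 30 sample, the other is assumed to vary like the other groups. Other settings moved these counts by less than 1.5 times, and the causes were not tested. Of the 61 named calls, 24 held whichever sample of the groups was left out, and none changed sign. Replicate numbers did not pair the samples (correlations of same-numbered deviations -0.02, 0.48 and -0.29, and not every sample correlated best with its own number). A replicate block gave 158 calls, 47 higher and 111 lower, of which 115 were among the 116. Array brightness limits what could be detected near the floor.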
